A study of Mus musculus with 25 samples.

Results

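Cdkn1a, the gene of the cell cycle inhibitor p21, was described here in mouse gonadal fat together with p53-linked genes and other inhibitors of cyclin-dependent kinases. The set was chosen by name, with earlier results of these data known. It held 9 genes: Cdkn1a as the lead gene, Cdkn1b, Cdkn2a, Cdkn2b, Cdkn2c, Trp53, Mdm2, Ccng1 and Gdf15. Of these, 7 had a value among the 22180 genes read, each from the only transcript cluster (the array's probe set for a gene) that carried its symbol alone. No cluster carried the symbol Trp53 or Gdf15 in the annotation used here, so both were not analysed here. Cdkn1a was selected on its difference between the diets at 4 weeks, so values that use the 4-week arrays are given for it as a description, without a test.

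Expression was measured on Affymetrix Mouse Gene 2.0 ST arrays in 25 male mice, all heterozygous for the ApoE3L.CETP transgenes, so no group lacked them. These mice carry a mutant human apolipoprotein E and the human cholesteryl ester transfer protein, which give them a more human-like lipoprotein profile. Feeding began at 12 weeks of age. The LFD had 10% fat and 70% carbohydrate, and the HFD had 60% fat, 20% carbohydrate and 0.25% cholesterol. There were 4 arrays for each of LFD and HFD at 8 and 12 weeks, 4 for LFD and 3 for HFD at 4 weeks, and 2 for the chow baseline at 12 weeks of age. The labels give an age of 16 weeks at 4 weeks of diet, 20 weeks at 8 weeks, and 34 weeks at 12 weeks, the last being more than the starting age and the time on diet add up to. The labels call the arrays of a group biological replicates, and their number limits the precision.

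p53 is a transcription factor that is held low by the ubiquitin ligase Mdm2 and accumulates after DNA damage and other stresses. Its targets include Cdkn1a, whose product stops the cyclin-dependent kinases of G1 and S phase, Ccng1, which encodes cyclin G1, and Mdm2 itself, which closes a negative feedback loop. The inhibitors of the INK4 family (Cdkn2a, Cdkn2b, Cdkn2c) bind Cdk4 and Cdk6, and those of the CIP/KIP family (Cdkn1a, Cdkn1b) also act on cyclin E and cyclin A complexes. Cdkn1a and Cdkn2a are widely used markers of cellular senescence, a lasting cell cycle arrest described in obese fat, where Cdkn1a, Cdkn1b and Cdkn2c are also tied to the differentiation of adipocytes.

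The 250 bases before the annotated starts were searched for the decamer of the p53 response element and for the GC box, the Sp1 motif (GGGCGG, or CCGCCC on the other strand), on both strands, since both elements are known from the Cdkn1a gene. Of the 7 members with a value, the sequences of the 3 with a decamer are shown, with the second Cdkn1a start for comparison. They come from RefSeq on GRCm38.p6, run 5′ to 3′ on the gene's strand and end at the base before the start. Capitals mark matches to the decamer or the GC box.
Cdkn1a, upstream start, chr17:29090729-29090978, plus strand: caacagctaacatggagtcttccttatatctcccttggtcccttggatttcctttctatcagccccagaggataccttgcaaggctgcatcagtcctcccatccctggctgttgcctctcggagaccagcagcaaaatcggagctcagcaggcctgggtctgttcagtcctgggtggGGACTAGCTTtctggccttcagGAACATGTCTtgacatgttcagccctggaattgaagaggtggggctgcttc
Cdkn1a, downstream start, chr17:29093519-29093768, plus strand: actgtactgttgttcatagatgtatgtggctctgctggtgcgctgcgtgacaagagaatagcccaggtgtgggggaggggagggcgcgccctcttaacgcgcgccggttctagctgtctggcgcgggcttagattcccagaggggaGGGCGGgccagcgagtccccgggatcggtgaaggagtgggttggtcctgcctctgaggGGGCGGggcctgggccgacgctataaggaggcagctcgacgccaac
Mdm2, chr10:117710759-117711008, minus strand: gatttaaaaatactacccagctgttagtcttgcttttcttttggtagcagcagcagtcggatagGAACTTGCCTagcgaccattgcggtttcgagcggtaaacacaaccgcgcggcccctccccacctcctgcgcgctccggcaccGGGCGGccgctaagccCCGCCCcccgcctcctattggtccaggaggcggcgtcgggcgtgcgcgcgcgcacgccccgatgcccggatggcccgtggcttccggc
Ccng1, chr11:40755287-40755536, minus strand: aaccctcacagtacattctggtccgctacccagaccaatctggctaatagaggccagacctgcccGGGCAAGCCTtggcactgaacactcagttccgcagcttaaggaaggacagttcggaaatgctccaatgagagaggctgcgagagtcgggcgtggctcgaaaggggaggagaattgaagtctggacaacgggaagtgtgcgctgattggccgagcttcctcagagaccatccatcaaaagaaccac

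The window before the upstream Cdkn1a start held 2 p53 decamers, beginning 73 and 51 bases before the start, and no GC box. At the downstream Cdkn1a start there were 2 GC boxes and no decamer. The Mdm2 window held 1 decamer, 186 bases before the start, and 2 GC boxes, and the Ccng1 window held 1 decamer, 185 bases before the start, and no GC box. No window of Cdkn1b, Cdkn2a, Cdkn2b or Cdkn2c held a decamer. Over 32851 windows of the same length, 7.13% held at least 1 decamer, 0.259% held 2 or more, and 32.7% held a GC box. A match describes the letters in these windows and is no measure of binding, and motifs elsewhere in the genes were not searched.

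Some arrays stood apart in transcripts of other tissues. The mean level of 19 hepatocyte markers was 9.51 to 11.18 (log2) in 11 of the 16 arrays of 8 and 12 weeks and at most 7.88 in the other 14 arrays. These 11 arrays were 2 of 4 for LFD at 8 weeks and 3 of 4 in each of the other 3 groups. The mean of 13 epididymis markers was 12.13 in chow array 1, 10.50 in HFD array 1 at 4 weeks, 5.81 in LFD array 1 at 4 weeks, and at most 4.33 elsewhere. The mean of 10 adipocyte markers lay between 11.79 and 12.25 in every array of LFD and HFD, and at 10.99 and 12.06 in the 2 chow arrays. For the members, results below are given with and without the arrays in question where that ends a call. In bulk tissue, fewer cells of a type and less RNA per cell cannot be told apart.

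Cdkn1a was higher in the fat of HFD-fed mice at every time point. Its levels (log2 array value) at 4 weeks were 7.42, 8.52, 7.84 and 7.31 on LFD against 9.95, 9.75 and 10.81 on HFD. At 8 weeks they were 8.55, 9.05, 7.90 and 9.34 on LFD against 10.71, 10.52, 10.55 and 10.00 on HFD. At 12 weeks they were 7.79, 8.07, 7.81 and 7.84 on LFD against 10.47, 10.24, 10.14 and 10.11 on HFD. The 2 chow arrays read 7.85 and 8.02. All 11 HFD arrays, the lowest at 9.75, lay above all 12 LFD arrays, the highest at 9.34, and above both chow arrays. Such a separation over all times was found for 0.604% of the genes. It includes the arrays on which Cdkn1a was selected and is given as a description.

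**Figure D1:**
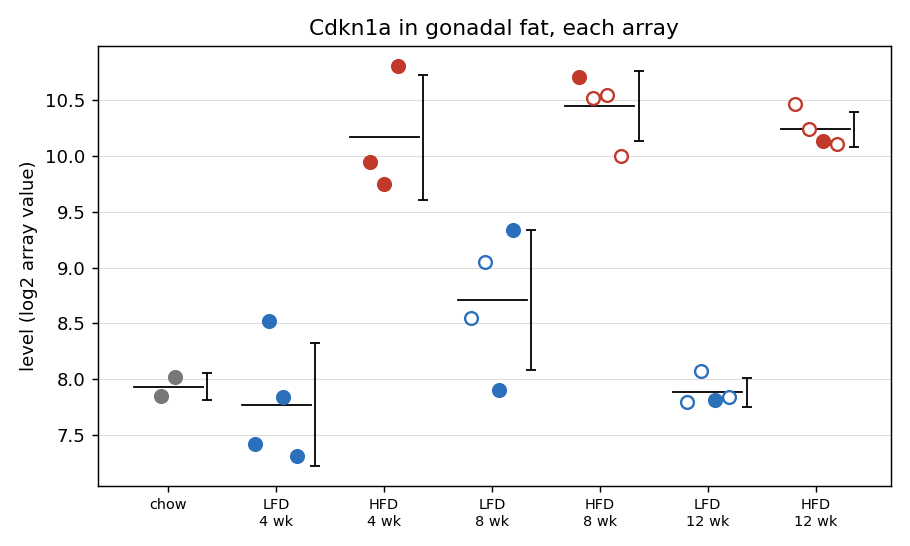
Level of Cdkn1a (log2 array value, vertical axis) in each array of the 7 groups, with a horizontal line at the group mean and a bar for its SD; open circles are arrays with a hepatocyte marker mean above 8. The HFD arrays sit between 9.75 and 10.81, the LFD arrays between 7.31 and 9.34, and the LFD arrays at 8 weeks spread from 7.90 to 9.34.

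The mean level of Cdkn1a was 7.77 ± 0.55 (SD, n = 4) on LFD and 10.17 ± 0.56 (n = 3) on HFD at 4 weeks, a log2 difference of 2.40 ± 0.30 (SE) or 5.27-fold. At 8 weeks the means were 8.71 ± 0.63 and 10.45 ± 0.31 (n = 4 each), and Cdkn1a rose on HFD by 1.73 ± 0.28, or 3.33-fold (limma, adjusted p = 0.00245). At 12 weeks they were 7.88 ± 0.13 and 10.24 ± 0.16 (n = 4 each), and the rise was 2.36 ± 0.28, or 5.14-fold (limma, adjusted p = 2.22e-04). The average over 8 and 12 weeks was 2.05 ± 0.20, or 4.14-fold (limma, adjusted p = 1.98e-06). With only the compared groups fitted, limma's adjusted p was 0.0147 at 8 weeks and 2.66e-05 at 12 weeks.

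The groups ordered by their mean level of Cdkn1a were LFD at 4 weeks, LFD at 12 weeks, chow, LFD at 8 weeks, then HFD at 4, 12 and 8 weeks. Neighbours in this order overlapped in their arrays, except LFD at 8 weeks and HFD at 4 weeks. The LFD arrays at 8 weeks averaged 0.94 above those at 4 weeks, and the 12-week LFD mean minus the 8-week one was -0.83 ± 0.28 (limma, adjusted p = 0.359). On HFD, the 12-week mean differed from the 8-week mean by -0.20 ± 0.28 (adjusted p = 0.912). The diet difference at 12 weeks exceeded that at 8 weeks by 0.63 ± 0.39 (95% interval -0.18 to 1.44, limma, adjusted p = 0.981), which did not pass the threshold. Against chow, from mice younger by label, Cdkn1a was 2.24 ± 0.36 higher after 4 weeks of HFD and -0.16 ± 0.34 apart after 4 weeks of LFD.

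The split of the late arrays by hepatocyte markers was set beside the Cdkn1a levels. On LFD, the 5 late arrays high in these markers read 7.79 to 9.05 and the other 3 read 7.81 to 9.34. On HFD, the 6 high arrays read 10.00 to 10.55 and the other 2 read 10.14 and 10.71. The ranges overlapped within each diet and did not meet between diets. Without the 11 high arrays the difference was 2.09 at 8 weeks (limma, adjusted p = 0.359), 2.33 at 12 weeks (adjusted p = 0.544) and 2.21 on average (adjusted p = 0.0743), with 1 or 2 arrays left in each late group. Without the 5 low arrays it was 1.56 at 8 weeks (adjusted p = 0.0932), 2.37 at 12 weeks (adjusted p = 8.76e-04) and 1.97 on average (adjusted p = 2.67e-04). With the split as a block it was 1.73, 2.36 and 2.05, all past the threshold.

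**Figure D2:**
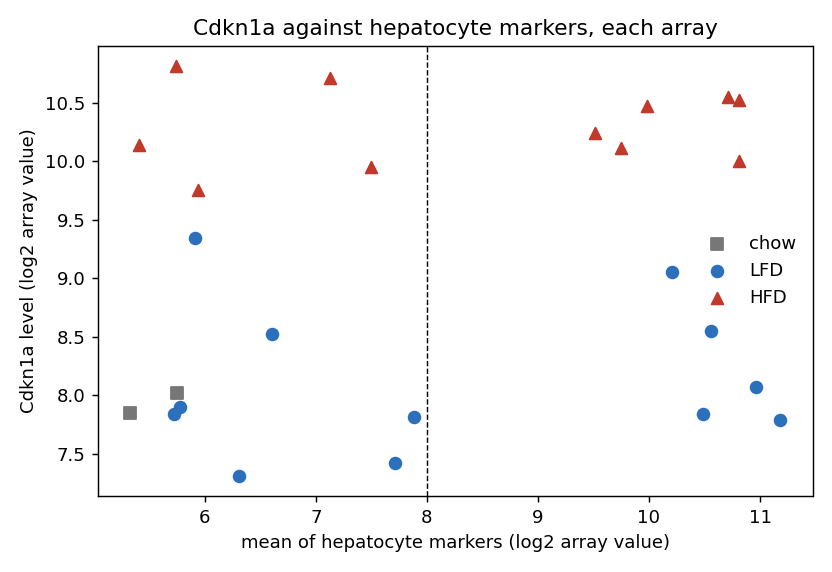
Level of Cdkn1a (log2 array value, vertical axis) against the mean of 19 hepatocyte markers (log2 array value, horizontal axis) in each of the 25 arrays, by diet; the dashed line is the limit of 8. HFD arrays lie at 9.75 or above and LFD and chow arrays at 9.34 or below on both sides of the line.

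The other CIP/KIP inhibitor, Cdkn1b (p27, which holds cells in G1), did not follow Cdkn1a. Its levels at 8 weeks were 7.64, 7.79, 7.68 and 7.50 on LFD against 7.31, 7.18, 7.45 and 7.17 on HFD, with no overlap. It fell by 0.37 (SE 0.10) on HFD at 8 weeks, with limma's adjusted p at 0.0497, next to the limit of 0.05. At 4 and 12 weeks the arrays of the diets overlapped and the differences were -0.14 ± 0.11 and -0.11 ± 0.10. The mean difference of 8 and 12 weeks was -0.24 ± 0.07 (limma, adjusted p = 0.0307). The 8-week call ended without HFD array 1, 2 or 4 or LFD array 1, 2 or 3 (adjusted p 0.109 to 0.164), and the average call ended without any of 9 of the 16 late arrays (5 of 8 weeks: LFD 1, 2, 3 and HFD 2, 4; 4 of 12 weeks: LFD 1, 3, 4 and HFD 4). In 25 arrays the level ran from 7.17 to 7.91, so this gene moved within a narrow range.

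The Cdkn1b calls also ended when the late arrays were cut by the hepatocyte split, on either side, which leaves fewer arrays. The part of the hepatocyte markers and that of the array number were not tested. Without the 11 late arrays high in these markers the difference was -0.28 at 8 weeks (limma, adjusted p = 0.982) and -0.15 on average (adjusted p = 0.978). Without the 5 low ones it was -0.45 (adjusted p = 0.276) and -0.30 (adjusted p = 0.092). With the split as a block it was -0.37 at 8 weeks (adjusted p = 0.0596) and -0.24 on average (adjusted p = 0.04). In all, the 8-week call ended in 11 of 17 settings other than single arrays left out, and the average call in 5 of 17, while the difference stayed below 0 in each.

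Cdkn2c (p18), an INK4 inhibitor, was lower on HFD at each time. At 4 weeks its levels were 9.42, 8.80, 9.21 and 9.38 on LFD against 8.61, 8.66 and 8.57 on HFD. At 8 weeks they were 9.46, 9.63, 9.24 and 9.60 against 8.26, 8.76, 8.66 and 8.98, and at 12 weeks 9.05, 8.71, 8.97 and 8.86 against 8.50, 8.47, 8.29 and 8.49. LFD and HFD arrays kept apart at each of the 3 times, although over all times the lowest LFD array (8.71) lay under the highest HFD array (8.98). The difference was -0.59 ± 0.21 at 4 weeks (limma, adjusted p = 0.359), -0.82 ± 0.20 at 8 weeks (1.76-fold lower, adjusted p = 0.031) and -0.46 ± 0.20 at 12 weeks (adjusted p = 0.241), so it passed the threshold at 8 weeks. On average over 8 and 12 weeks Cdkn2c fell by 0.64 (SE 0.14, 1.56-fold, limma, adjusted p = 0.00415).

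The 8-week call of Cdkn2c ended without HFD array 1 or 3 or LFD array 1, 2 or 4 (adjusted p 0.0629 to 0.139), and the average call stayed whichever late array was left out. Both calls ended when the late arrays were cut by the hepatocyte split. Without the 11 high arrays the difference was -1.16 at 8 weeks (limma, adjusted p = 0.569) and -0.92 on average (adjusted p = 0.364). Without the 5 low ones it was -0.74 (adjusted p = 0.336) and -0.57 (adjusted p = 0.0837). With the split as a block it was -0.86 (adjusted p = 0.019) and -0.66 (adjusted p = 0.00274). The chow arrays of Cdkn2c read 7.26 and 8.57. Chow mice were also younger by label, so age and diet cannot be told apart in the comparison with them. LFD at 4 weeks was 1.29 ± 0.24 above chow (limma, adjusted p = 0.0143). Without chow array 1, which was high in epididymis markers, that difference was 0.63 (adjusted p = 0.416), and without all 3 arrays high in them it was 0.56 (adjusted p = 0.435).

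Cdkn2a and Cdkn2b, neighbouring INK4 genes on chromosome 4, passed no diet test. Cdkn2a, the senescence marker whose locus encodes both p16 and p19ARF, which 1 cluster cannot tell apart, stayed between 5.48 and 6.15 in all 25 arrays. Whether the Cdkn2a signal stood above background could not be read from these values, which limits what a flat level shows. The diet difference of Cdkn2a was -0.19 ± 0.12 at 4 weeks, -0.03 ± 0.11 at 8 weeks (95% interval -0.26 to 0.19) and -0.11 ± 0.11 at 12 weeks (-0.34 to 0.11). Cdkn2b (p15) read 6.71, 7.17, 6.83 and 7.29 on LFD and 7.66, 7.50 and 7.90 on HFD at 4 weeks, with no overlap and a difference of 0.69 ± 0.16 (limma, adjusted p = 0.0984). At 8 and 12 weeks its differences were -0.11 ± 0.15 and 0.30 ± 0.15, with LFD and HFD arrays overlapping. The diet difference of Cdkn2b at 8 weeks minus that at 4 weeks was -0.80 ± 0.22 (limma, adjusted p = 0.814).

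**Figure D3:**
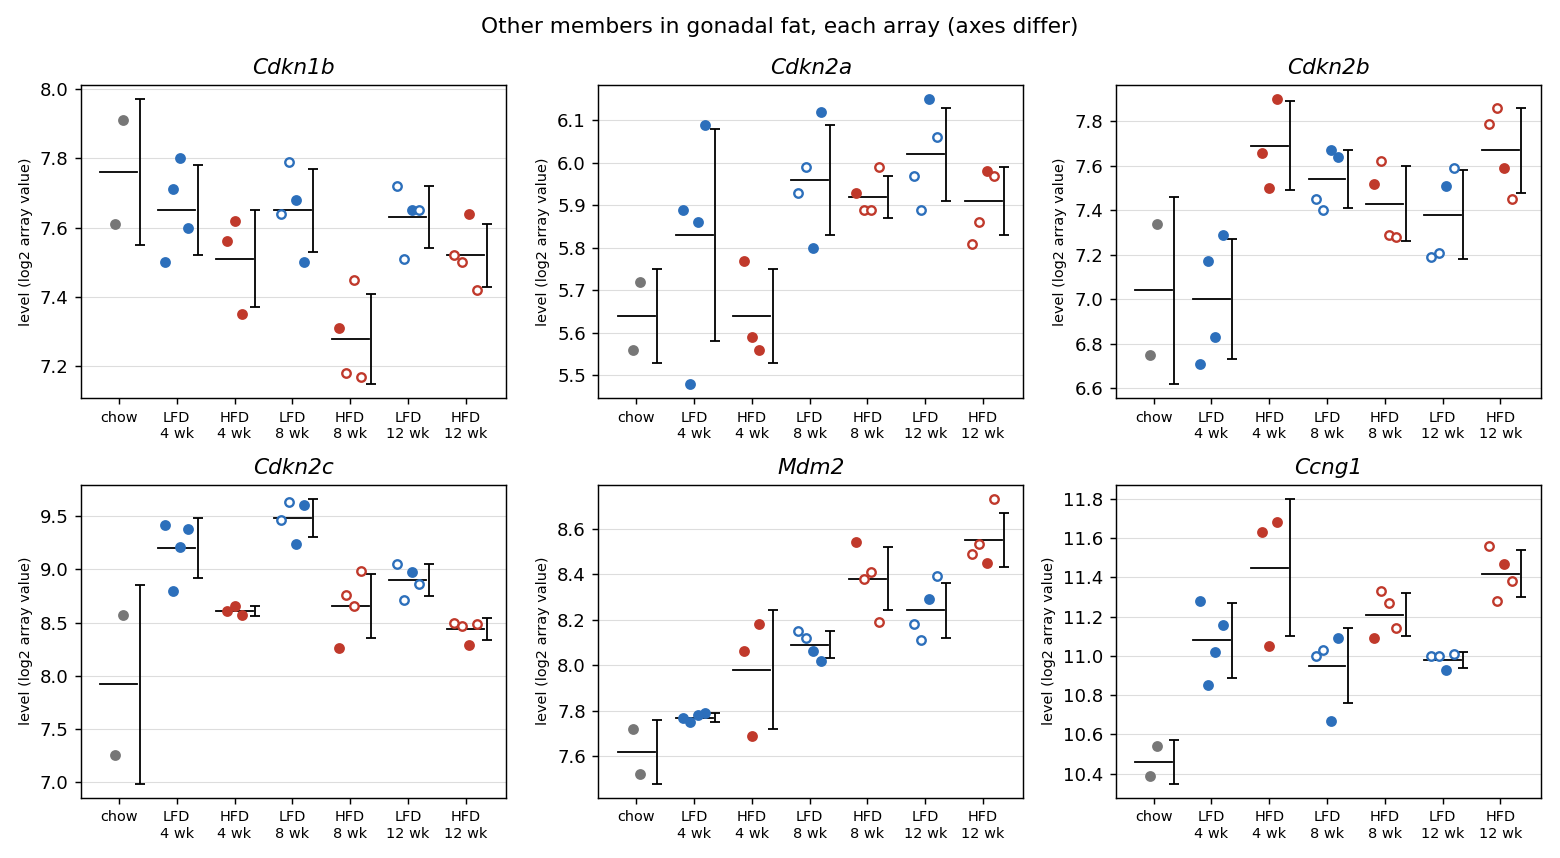
Level of the other 6 members (log2 array value, vertical axes, which differ between panels) in each array of the 7 groups, with a line at the group mean and a bar for its SD; open circles are arrays with a hepatocyte marker mean above 8. Cdkn2c lies lower on HFD at 4, 8 and 12 weeks, Mdm2 climbs from a mean of 7.62 in chow to 8.55 on HFD at 12 weeks, and Cdkn2a stays between 5.48 and 6.15.

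Among the p53 targets, Mdm2 (the ligase that restrains p53) and Ccng1 (cyclin G1) were higher on HFD by far less than Cdkn1a. Mdm2 read 8.15, 8.12, 8.06 and 8.02 on LFD against 8.54, 8.38, 8.41 and 8.19 on HFD at 8 weeks. At 12 weeks it read 8.18, 8.11, 8.29 and 8.39 against 8.49, 8.53, 8.45 and 8.73. LFD and HFD arrays kept apart at 8 and 12 weeks, and at 4 weeks they overlapped, with 7.77, 7.75, 7.78 and 7.79 on LFD against 8.06, 7.69 and 8.18 on HFD. The difference was 0.20 ± 0.11 at 4 weeks, 0.29 ± 0.10 at 8 weeks (limma, adjusted p = 0.167) and 0.31 ± 0.10 at 12 weeks (adjusted p = 0.109), and no single time passed the threshold. Averaged over 8 and 12 weeks Mdm2 rose by 0.30 ± 0.07, or 1.23-fold (limma, adjusted p = 0.0104).

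Mdm2 also rose with time in both diets. From 4 to 12 weeks it rose by 0.47 ± 0.10 on LFD (limma, adjusted p = 0.0393) and by 0.57 ± 0.11 on HFD (adjusted p = 0.0256). The groups ordered by its mean were chow (7.62 ± 0.14, n = 2), LFD and HFD at 4 weeks (7.77 ± 0.02 and 7.98 ± 0.26), LFD at 8 weeks (8.09 ± 0.06), LFD at 12 weeks (8.24 ± 0.12), HFD at 8 weeks (8.38 ± 0.14) and HFD at 12 weeks (8.55 ± 0.12). All neighbours in this order from LFD at 4 weeks on overlapped in their arrays, while chow and LFD at 4 weeks did not. Age and the hepatocyte mean were also higher at the later times. With the hepatocyte split as a block the difference was 0.47 on LFD (adjusted p = 0.179) and 0.58 on HFD (adjusted p = 0.0376). Without the arrays high in epididymis markers it was 0.47 on LFD (adjusted p = 0.0691) and 0.61 on HFD (adjusted p = 0.041). The LFD call ended without any of 7 of its 8 arrays, all but 12-week array 3. The HFD call ended without 5 of its 7 arrays, namely 4-week array 1 or 2 or 12-week array 1, 3 or 4. The part of age in it cannot be told apart from time on diet.

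Ccng1 read 11.28, 10.85, 11.02 and 11.16 on LFD against 11.63, 11.05 and 11.68 on HFD at 4 weeks. At 8 weeks it read 11.00, 11.03, 10.67 and 11.09 against 11.09, 11.33, 11.27 and 11.14, and at 12 weeks 11.00, 11.00, 10.93 and 11.01 against 11.56, 11.28, 11.47 and 11.38. Only at 12 weeks were the diets apart. The difference was 0.38 ± 0.14 at 4 weeks (limma, adjusted p = 0.365), 0.26 ± 0.13 at 8 weeks (adjusted p = 0.381) and 0.44 ± 0.13 at 12 weeks (adjusted p = 0.053), where the threshold was just missed and was passed in 9 of 17 alternative settings. Averaged over 8 and 12 weeks Ccng1 rose by 0.35 ± 0.09, or 1.27-fold (limma, adjusted p = 0.0145). Both chow arrays, at 10.39 and 10.54, lay below every other array, the lowest of which read 10.67. Ccng1 was 0.61 ± 0.16 above chow after 4 weeks of LFD (limma, adjusted p = 0.0495) and 0.99 ± 0.17 after 4 weeks of HFD (adjusted p = 0.00149). Without the 3 arrays high in epididymis markers these were 0.47 (adjusted p = 0.455) and 0.83 (adjusted p = 0.0683). The LFD call also ended without chow array 1 or any of the 4 LFD arrays. In settings other than single arrays left out, the LFD call ended in 10 of 15 and the HFD call in 3 of 15. By label the chow mice were 12 weeks old and those at 4 weeks of diet 16, so age and diet cannot be told apart here.

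For the average calls of Mdm2 and Ccng1 no single array decided, and both were lost when the late arrays were cut by the hepatocyte split. Without the 11 high arrays the differences were 0.33 for Mdm2 (adjusted p = 0.619) and 0.38 for Ccng1 (adjusted p = 0.751). Without the 5 low arrays they were 0.27 (adjusted p = 0.14) and 0.32 (adjusted p = 0.146).

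**Figure D4:**
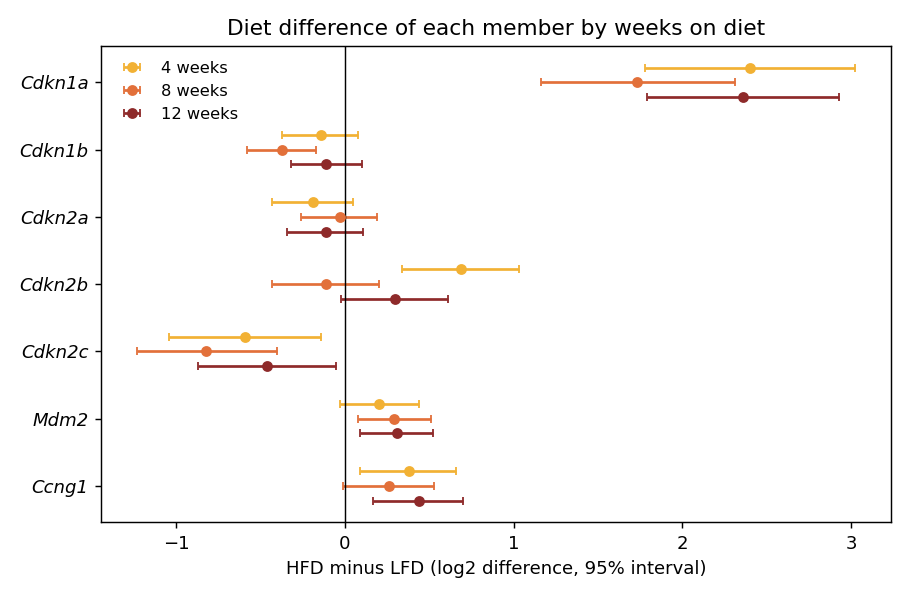
Diet difference of each member (HFD minus LFD, log2, horizontal axis) at 4, 8 and 12 weeks, with its 95% interval. Cdkn1a stands at 2.40, 1.73 and 2.36, Cdkn2c lies below 0 at -0.59, -0.82 and -0.46, and the intervals of Cdkn2a include 0 at all 3 times.

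The members, chosen with earlier results of these data known, were then counted against all genes as a description. At 8 weeks 1 of 7 passed as higher (Cdkn1a) and 2 as lower (Cdkn1b, Cdkn2c), where 1.17% of all genes passed as higher and 1.24% as lower. At 12 weeks 1 of 7 passed as higher (Cdkn1a), where 3.13% did so, and none passed as lower, where 1.33% did (limma; Cdkn2c had an unadjusted p of 0.0306). For the average of 8 and 12 weeks 3 passed as higher (Cdkn1a, Mdm2, Ccng1) and 2 as lower (Cdkn1b, Cdkn2c), against 5.34% and 4.15% of all genes. At 4 weeks, the contrast that chose Cdkn1a, 0.189% of all genes passed as higher and 0.0225% as lower. None of the other 6 members passed there (limma; Cdkn2b, Cdkn2c and Ccng1 had an unadjusted p under 0.05). LFD and HFD arrays were fully separated for 4 of 7 members at 8 weeks and 4 at 12 weeks, against 11.4% and 12.6% of all genes. At 4 weeks they were so for Cdkn2b, Cdkn2c and the chosen Cdkn1a (9.09% of all genes).

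Changes of the diet difference over time passed for no member and for 0% of all genes in each of the 3 pairs of times (limma, with 1329, 1236 and 1127 genes at an unadjusted p under 0.05 for 8 against 4, 12 against 4 and 12 against 8 weeks, Cdkn2b among the first at 0.00178). Within LFD, Mdm2 was the called member for 12 against 4 weeks, where 0.681% of all genes passed. No member passed for 8 against 4 weeks (0.636% of all genes) or 12 against 8 weeks (0.0676%). Within HFD, Mdm2 was again the called member for 12 against 4 weeks (0.573% of all genes). No member passed for 8 against 4 weeks (0%, with 1964 genes at an unadjusted p under 0.05) or 12 against 8 weeks (0.0361%). Against chow, 2 members passed after 4 weeks of LFD (Cdkn2c and Ccng1, 1.55% of all genes) and, besides the described Cdkn1a, Ccng1 after 4 weeks of HFD (4.18%).

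Some of the other listed p53 targets were higher on HFD. This list and those below were chosen with earlier results of these data known. Averaged over 8 and 12 weeks 9 of the 26 targets with a value (30 listed) rose, where 5.34% of all genes did, and none fell, where 4.15% did, with a median difference of 0.26 where the median of all genes was -0.01 (limma; 13 were higher and 1 lower at an unadjusted p under 0.05). Leaving out the members, 6 of 23 rose, 14 of 23 had a difference above 0, and the median was 0.25. The 4 with the smallest p were Cdkn1a, Fas (a death receptor, 0.46 ± 0.09, adjusted p = 0.00108), Apaf1 (the scaffold of the apoptosome, 0.42 ± 0.09, adjusted p = 0.00483) and Mdm2. The other rising non-members, named after their values were seen, were Pmaip1 (Noxa, which opposes anti-apoptotic Bcl2 proteins, 0.39 ± 0.10), Btg2 (an antiproliferative gene, 0.40 ± 0.12), Aen (a nuclease of apoptosis, 0.27 ± 0.08) and Polk (a DNA repair polymerase, 0.24 ± 0.07). Targets that did not pass included Bbc3 (Puma) at -0.20 ± 0.11, Rrm2b at -0.24 ± 0.08 and Phlda3 at -0.29 ± 0.17. Cdkn1a at 2.05 stood above every other listed target by more than 1.5 on the log2 scale.

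**Figure D5:**
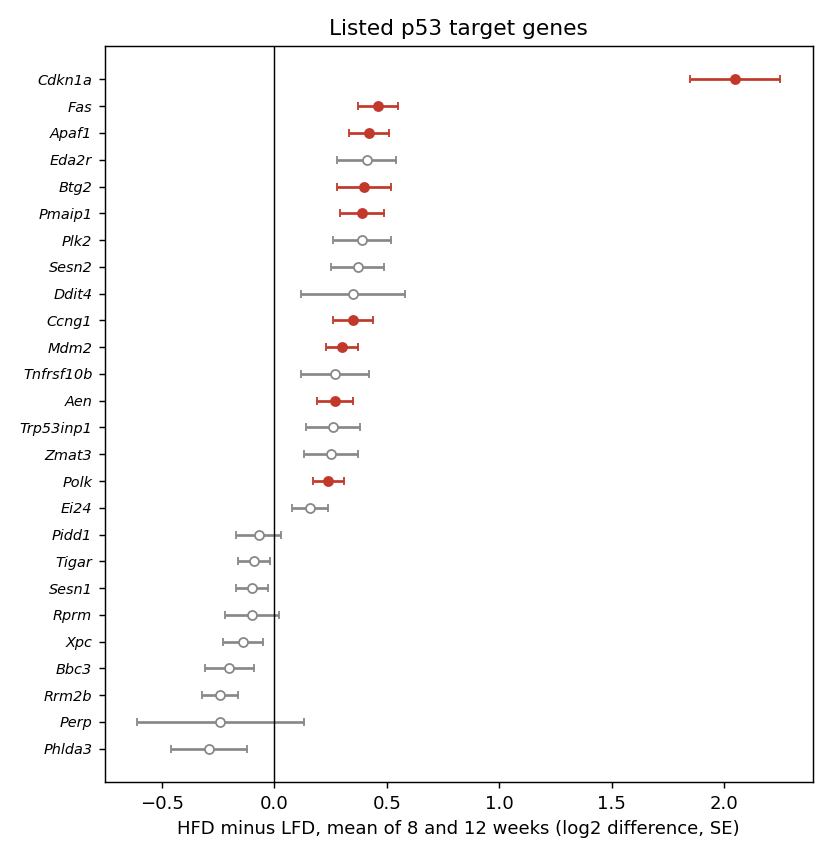
Diet difference (HFD minus LFD averaged over 8 and 12 weeks, log2, horizontal axis) of the 26 listed p53 targets with a value, with its SE; filled red points passed the threshold. Cdkn1a lies at 2.05, the other 8 that passed lie between 0.24 and 0.46, and the lowest, Phlda3, lies at -0.29.

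At single times fewer of these targets passed. At 8 weeks, where 1.17% of all genes passed as higher, these were Cdkn1a and Fas (0.48 ± 0.12, adjusted p = 0.0419). At 12 weeks, where 3.13% did, they were Cdkn1a, Aen (0.42 ± 0.11, adjusted p = 0.0334), Fas (0.44 ± 0.12, adjusted p = 0.0395) and Apaf1 (0.47 ± 0.13, adjusted p = 0.0432). At 4 weeks none of the 23 non-members passed (limma; 7 were higher at an unadjusted p under 0.05), and their median was 0.15. The average count of 9 was 0 without the 11 late arrays high in hepatocyte markers, 3 without the 5 low ones, 14 without the arrays high in epididymis markers and 7 to 10 with any single late array left out. The share of all genes called in these refits of the average was not counted, so the counts are not set against it. Over all genes, totals were counted for single times only. The 533 called at 8 weeks became 13 without the 5 low arrays and 1251 without those high in epididymis markers. At 12 weeks, 989 became 879 and 1865 in the same refits. Of 15 measured p53 regulators (16 listed), Mdm2 rose and Trp63 (a p53 relative of epithelia) fell by 0.50 (SE 0.16, limma, adjusted p = 0.048), with a median of 0.00. In this average of 8 and 12 weeks 5.34% of all genes rose and 4.15% fell. Mdm4, the partner of Mdm2, differed by -0.15 ± 0.09 and the kinase gene Atm by 0.18 ± 0.07, neither past the threshold.

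Few partners of these inhibitors in G1 passed the test. On average over 8 and 12 weeks 5.34% of all genes rose and 4.15% fell. In lists this small, a count of 1 is not read as a result about the partners. Among 7 measured G1 cyclins and kinases (8 listed), 1 passed: Cdk6 rose by 0.57 ± 0.15 (limma, adjusted p = 0.0193) on average over 8 and 12 weeks, and the median was 0.02. Cdk4 differed by -0.01 ± 0.10 and Cdk2 by -0.10 ± 0.10. Of 10 genes of the Rb family and E2F, E2f8 (an atypical E2F that represses transcription) rose by 0.78 ± 0.11 (adjusted p = 6.17e-05), and the median was 0.12. The 2 CDK inhibitors outside the set were not called: Cdkn1c (p57) differed by -0.34 ± 0.12 (adjusted p = 0.076) and Cdkn2d (p19 of the INK4 family) by 0.02 ± 0.07.

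Proliferation genes were higher on HFD as well. Of 18 measured genes (19 listed), 13 rose on average over 8 and 12 weeks, where 5.34% of all genes did, with a median of 0.48. The 4 with the smallest p were Kif11 (a spindle motor, 0.75 ± 0.10), Mki67 (the Ki-67 antigen, 1.01 ± 0.16), Mcm5 (a replication licensing factor, 0.58 ± 0.11) and Ccna2 (cyclin A2, 0.75 ± 0.14). Their count was 2 at 8 weeks (1.17% of all genes), 11 at 12 weeks (3.13%) and 0 at 4 weeks (0.189%). At 4 weeks 2 of the listed genes were higher at an unadjusted p under 0.05 (limma). For the average without some late arrays, the share of all genes called was not counted. The average count was 3 without the 11 late arrays high in hepatocyte markers and 7 without the 5 low ones.

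Macrophage markers moved with the diet as well, and their part in the member values was not tested. On average over 8 and 12 weeks 13 of 14 rose (5.34% of all genes did), with a median of 1.05, led by Itgax (1.96 ± 0.23), Gpnmb (2.89 ± 0.39), Itgam (1.14 ± 0.15) and Laptm5 (0.98 ± 0.14). At 4 weeks none passed, where 0.189% of all genes passed as higher (limma, 2 of the markers at an unadjusted p under 0.05), although 13 of 14 differences were above 0, with a median of 0.30. At 8 weeks 8 passed (1.17% of all genes) and at 12 weeks 12 (3.13%). The mean level of the 14 markers was 8.09 to 8.60 on LFD and 8.46 to 8.84 on HFD at 4 weeks, 8.14 to 8.22 and 8.81 to 9.94 at 8 weeks, and 7.83 to 8.36 and 9.17 to 9.91 at 12 weeks. Fibroblast markers moved in part. On average over 8 and 12 weeks 3 of 7 rose (5.34% of all genes), with a median of 0.20, and none fell (4.15%). At 12 weeks 3 passed as higher, and at 4 and 8 weeks none did (limma, 1 at an unadjusted p under 0.05 at each). Their mean level at 12 weeks was 9.66 to 10.04 on LFD and 10.27 to 10.38 on HFD. It was 10.08 to 10.34 and 10.35 to 10.55 at 4 weeks, and overlapped at 8 weeks. The part of fibroblasts was not tested either.

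Senescence lists gave a mixed picture. Of 21 measured secreted factors (24 listed), 9 rose and 1 fell on average over 8 and 12 weeks, against 5.34% and 4.15% of all genes, with a median of 0.35. The 4 with the smallest p were Mmp12 (a macrophage elastase, 2.71 ± 0.35), Timp1 (a protease inhibitor, 1.41 ± 0.19), Ccl8 (1.11 ± 0.20) and Ccl2 (1.41 ± 0.25), both monocyte chemokines. Vegfa, the vascular growth factor, fell by 0.57 (SE 0.15, adjusted p = 0.0128). The interleukins of this list did not pass: Il6 differed by 0.06 ± 0.13, Il1a by 0.02 ± 0.17 and Il1b by 0.13 ± 0.16. For the average without some late arrays, given next, the share of all genes called was not counted. The count of rising factors was 3 at 8 weeks (1.17% of all genes) and 8 at 12 weeks (3.13%), and the average count was 1 without the 11 late arrays high in hepatocyte markers and 6 without the 5 low ones.

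Of 8 measured genes of senescent cell state (10 listed), 2 rose on average over 8 and 12 weeks, where 5.34% of all genes did. These were Cdkn1a, the chosen lead gene, and Hmgb2 (a chromatin protein that is known to be lost in senescence, 0.53 ± 0.13, limma, adjusted p = 0.00976). None fell, where 4.15% of all genes did (limma, 0 lower at an unadjusted p under 0.05). Lmnb1, the lamin B1 gene whose loss is used as a senescence marker, was 0.20 ± 0.10 higher (adjusted p = 0.251). Cdkn2a, at -0.07 ± 0.08, belongs to the same list. Macrophage markers rose in the same comparisons as these lists, and their part in them was not tested.

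Genes whose levels ran most like Cdkn1a over the 25 arrays were Col6a1 (r = 0.95), Col6a2 (0.93), Septin9 (0.92), Rnase2a (0.92) and Anxa2 (0.92), of 19294 genes ranked by Pearson's r. The first pair encode chains of collagen VI, a matrix protein of adipose tissue. Col6a1 differed between the diets by 1.18 ± 0.19, 0.82 ± 0.18 and 1.20 ± 0.18 at 4, 8 and 12 weeks. It was picked for its r with Cdkn1a over these same arrays, so a course like that of Cdkn1a was built in. The most opposite genes were Net1 (r = -0.90), Usp33 (-0.89) and Cldn22 (-0.87). Net1 differed by -1.04 ± 0.17, -0.79 ± 0.16 and -1.18 ± 0.16. The arrays share their diet groups, and these values are a description.

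In the 14 arrays with a low hepatocyte mean, Col6a1 was again the most like Cdkn1a (r = 0.94), followed by Kif20a, Duoxa1, Myl4 and Dusp9. With group means taken off, other genes led (Ptgr1 at 0.74, then Serpinb3a, Mir376a, Tsg101 and Lbp), with Egfem1 at -0.80 the most opposite. Among the members, Ccng1 (0.66), Mdm2 (0.61) and Cdkn2b (0.61) ran with Cdkn1a over the 25 arrays, Cdkn2a (-0.14) and Cdkn2c (-0.33) only weakly against it, and Cdkn1b (-0.64) against it. With group means taken off these were 0.30 for Ccng1, 0.25 for Mdm2, 0.24 for Cdkn2b, -0.29 for Cdkn2a, -0.15 for Cdkn2c and -0.04 for Cdkn1b. All but Cdkn2a were then closer to no correlation.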

How the data were processed

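Gonadal white adipose tissue of 25 mice was measured on Affymetrix Mouse Gene 2.0 ST arrays. The authors' deposited values are log2 levels per transcript cluster, judged from their range of 1.73 to 14.13; per the series' design text they were made with the Transcriptome Analysis Console, version 4.0.2. No source used here states the background correction or normalization. Levels of different genes rest on different probes and were not compared. Of 34472 clusters, 23521 carried 1 symbol in the platform annotation, 1814 several and 9137 none; the cluster with the highest mean stood for each of 22180 genes.

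Group means were fitted to all 25 arrays with limma 3.58.1 in R 4.3.3 (18 residual degrees of freedom), and p-values were adjusted by Benjamini-Hochberg over all genes; a gene was called at an adjusted p under 0.05. The fit was tested on simulated data with independent noise for each gene and array. No shared hepatocyte or epididymis differences between arrays were simulated, so that test does not cover them. The members and gene lists were chosen with earlier results of these data known. All members, the 4 called genes of a list with the smallest p in a diet comparison, and the 5 genes most like and 3 least like Cdkn1a were named; uncalled list genes were picked after their values were seen. Alternatives covered the arrays fitted, scaling, filters, moderation, array weights, a replicate block, the design text's analysis of variance (unadjusted p under 0.05, fold of 1.5), hepatocyte and epididymis markers, and single arrays. Promoter sequences were matched by symbol for all 9 members, and those of the 7 with a value were used.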

Additional observations from a re-analysis of the deposited data

Results flagged for a closer look

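In the groups of 4 arrays, the gap of the highest or lowest array to its neighbour was set against the group's range for each member, in 35 groups. Chance marks about 1 in 20 such groups, and 2 were marked here. Cdkn2c in HFD array 3 at 12 weeks read 8.29, where the next array read 8.47 and the gap was 0.86 of the range. This array had the lowest hepatocyte mean of its group, 5.41 against 9.51 to 9.98, whose part in the value was not tested. Ccng1 in LFD array 3 at 12 weeks read 10.93, where the next array read 11.00 and the gap was 0.88 of the range. The group's SD was 0.04, so this gap is small.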

How the results depend on the processing

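Cdkn1a kept its direction in every setting tried. It lost its call at 8 weeks without the late arrays high in hepatocyte markers (2.09) or low in them (1.56), and without the high ones at 12 weeks (2.33) and on average (2.21), where 1 or 2 arrays a group remain and are taken to vary like the rest. With single arrays left out it ranged over 2.08 to 2.65 at 4 weeks, 1.46 to 1.94 at 8, 2.29 to 2.43 at 12 and 1.91 to 2.15 on average.

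Called members were also counted in each setting. At 4 weeks Cdkn1a was left out of the count, as it was chosen on that contrast. None of the other members passed in the main fit, with only the compared groups fitted or with single arrays left out. Cdkn2b and Cdkn2c passed by analysis of variance with unadjusted p and the fold limit of 1.5, and Cdkn2b with marker means as covariates. At 8 weeks 3 became 0 without the late arrays high, or low, in hepatocyte markers, and 1 to 2 with an array left out. At 12 weeks 1 became 3 with only the compared groups or array weights. It became 2 under quantile normalization, median centring, the filter on low genes, the intensity trend or the hepatocyte block. The count was also 2 with covariates or without the epididymis-high arrays, and 1 with any single array left out. Without the hepatocyte-high arrays only 1 array a group was left at 12 weeks. The average count of 5 became 2 by the unadjusted analysis of variance or a fold limit of 1.5. It was 1 without the hepatocyte-low arrays and 4 to 5 without single arrays. Without the hepatocyte-high arrays 1 or 2 arrays a group remained. For the average, the share of all genes called in these refits was not counted, so the counts are not set against it.

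Genes called at 4 weeks (47) became 0 with only the compared groups, 76 with low genes out, 163 with array weights, 31 and 466 by adjusted and unadjusted analysis of variance and 231 with covariates, and 2 to 100 without single arrays. At 8 weeks 533 became 313 with medians centred, 1267 with weights, 814 by unadjusted analysis of variance, 978 with covariates, 1251 without epididymis-high, 38 without hepatocyte-high and 13 without hepatocyte-low arrays, and 164 to 438 without single arrays. At 12 weeks 989 became 1787, 1865 and 0 with weights, without epididymis-high and without hepatocyte-high arrays, and 558 to 944 without single arrays. The cause of these shifts was not tested.

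Cdkn2a at 8 weeks turned to 0.02 without LFD array 4 (range -0.09 to 0.02), and Cdkn2b on average to -0.03 without the hepatocyte-high arrays. Same-numbered arrays of the 2 diets had a residual r of 0.03 to 0.60 at 4 and 12 weeks and -0.61 to 0.31 at 8 weeks. Of the 11 pairs, 5 were over 0.1, which does not settle whether the numbers pair the arrays. With the replicate block Cdkn1b at 8 weeks was -0.37 (limma, adjusted p = 0.0512). Signal over background could not be read from these values.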

Other observations

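Trp53cor1, the non-coding RNA gene that neighbours Cdkn1a on chromosome 17 and is known as a p53 target, was picked after its values were seen. Its mean level was 5.73 ± 0.19 (n = 4) on LFD and 6.32 ± 0.42 (n = 3) on HFD at 4 weeks, 5.93 ± 0.59 and 6.62 ± 0.21 at 8 weeks, and 5.72 ± 0.33 and 6.59 ± 0.25 at 12 weeks (n = 4 each). It rose on HFD by 0.88 ± 0.24 at 12 weeks (limma, adjusted p = 0.0332) and by 0.78 ± 0.17 on average over 8 and 12 weeks (adjusted p = 0.00313), and its r with Cdkn1a was 0.82 over the 25 arrays and 0.50 with group means taken off. The average call held without any single late array and ended without the 11 late arrays high in hepatocyte markers (0.94, adjusted p = 0.404), while the 12-week call ended without any of 6 of its 8 arrays (LFD 1, 3 and 4, HFD 2, 3 and 4) and in 3 of 17 other settings.

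Lists of stress and clock genes were read the same way, where 5.34% of all genes rose and 4.15% fell on average over 8 and 12 weeks. Of 14 genes of the integrated stress response, Atf3 (a stress transcription factor) rose by 1.37 ± 0.19 and Vldlr by 0.42 ± 0.10 on average over 8 and 12 weeks, Asns (asparagine synthetase) fell by 0.63 (SE 0.17), and the median was 0.11. Of 10 glucocorticoid targets, Mt2 rose by 0.55 ± 0.15, and the median was -0.01. Of 16 measured clock genes (18 listed), 3 rose and 9 fell, with a median of -0.55; the 4 with the smallest p were Per3 (-1.23 ± 0.15), Dbp (-1.33 ± 0.19), Tef (-1.01 ± 0.14) and Arntl (1.09 ± 0.16), and the hour of tissue collection is not given in the sources used here.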
